A study of Danio rerio with 24 samples.

Results

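Creatine kinases and the genes that supply creatine were followed in skeletal muscle of adult zebrafish. The genes were chosen by symbol: 7 named genes (ckma, ckmb, ckmt2a, ckmt2b, gamt, gatm and slc6a8) and any other creatine kinase symbol in the count table, which added ckba, ckbb and ckmt1. This gave 10 genes of the 31953 in the table, and all 10 passed the filter on low counts. RNA was sequenced from 3 groups of fish aged 4 months. The untrained_TG group carried a transgene written actc1b:PGC1alpha and was not trained. The trained_WT group was wild type and had undergone chronic exercise. The untrained_WT group was wild type and not trained. No agent or allele common to all groups is named in the labels. PGC1alpha is a transcriptional coactivator known for raising mitochondrial content, and actc1b is a muscle actin gene whose promoter drives expression in muscle cells. The labels do not give the species of the PGC1alpha sequence, the number of transgenic lines or the training schedule. The labels describe 24 samples, 8 per group, of which 21 were analysed here, 7 per group. Whether a sample came from 1 fish or from several is not stated, and the p-values therefore measure only the spread between these samples, which may be technical.

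Creatine kinase moves a phosphate group between ATP and creatine, and phosphocreatine is the fast energy reserve of muscle. Mitochondrial isoforms charge creatine with ATP that has just left the matrix, and cytosolic isoforms regenerate ATP next to the myosin and calcium pumps that spend it. Creatine itself is made by Gatm, which joins arginine and glycine, and then by Gamt, which adds a methyl group. It enters cells through the transporter Slc6a8. In mammals most synthesis takes place outside muscle, in kidney and liver, and muscle imports its creatine.

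Untrained_TG libraries held 42.8 to 78.1 M gene counts, trained_WT libraries 72.1 to 78.6 M and untrained_WT libraries 71.0 to 79.2 M. Mitochondrially encoded genes took a mean of 46.8% of counts in untrained_TG, 11.2% in trained_WT and 10.5% in untrained_WT, so levels are given as CPM (counts per M counts of a library size scaled by TMM) and kinase shares in the comparisons over nuclear genes alone. Skeletal muscle genes were present in every library. Summed heart markers (8 genes) lay between 4.28 and 28.1 CPM in untrained_TG, 3.46 and 25.1 in trained_WT and 10.7 and 56.0 in untrained_WT. Of these, vmhc had the highest mean level and nppa was at 0 in all libraries. Summed fast fibre markers (21 genes) lay between 2871 and 10086 CPM in untrained_TG, 110961 and 197390 in trained_WT and 54768 and 249350 in untrained_WT. Summed slow fibre markers (12 genes) lay between 11951 and 23847 CPM, 2012 and 4118, and 1358 and 3055 in the same groups. In muscle tissue fewer cells of a type and less RNA per cell cannot be told apart, which holds for every level below. The library of untrained_WT replicate 7 stood apart: its TMM factor was 2.01, against 0.722 to 1.35 in the other libraries, and it had the lowest untrained_WT level of ckma, ckmb, ckmt2a, ckmt2b and gatm. Germ-line markers summed to 111 CPM in untrained_WT replicate 3 and 68.8 in replicate 7, and to at most 18.7 in any other library. Fold changes, count ratios and kinase shares that use untrained_WT were therefore also computed without replicate 7 and without replicates 3 and 7. The correlations between genes were not.

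The comparison of untrained_TG with untrained_WT asks what the transgene changes without training. Transcripts of the 2 muscle cytosolic kinases and of both enzymes of creatine synthesis fell, and those of 1 brain-type kinase and 1 sarcomeric mitochondrial kinase rose. By edgeR's quasi-likelihood F test, 6 of the 10 genes were called at an adjusted p under 0.05, 2 higher and 4 lower. Of all 18947 genes tested 43.4% were called in this comparison, 18.3% higher and 25.1% lower, so the count of calls alone says little about these genes. For 5 of the 10 the groups did not overlap (2 higher and 3 lower), against 15.8% of all genes tested (7.51% higher and 8.26% lower). The median log2 fold change of the 10 was -0.51, beside -0.13 over all genes.

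**Figure D1:**
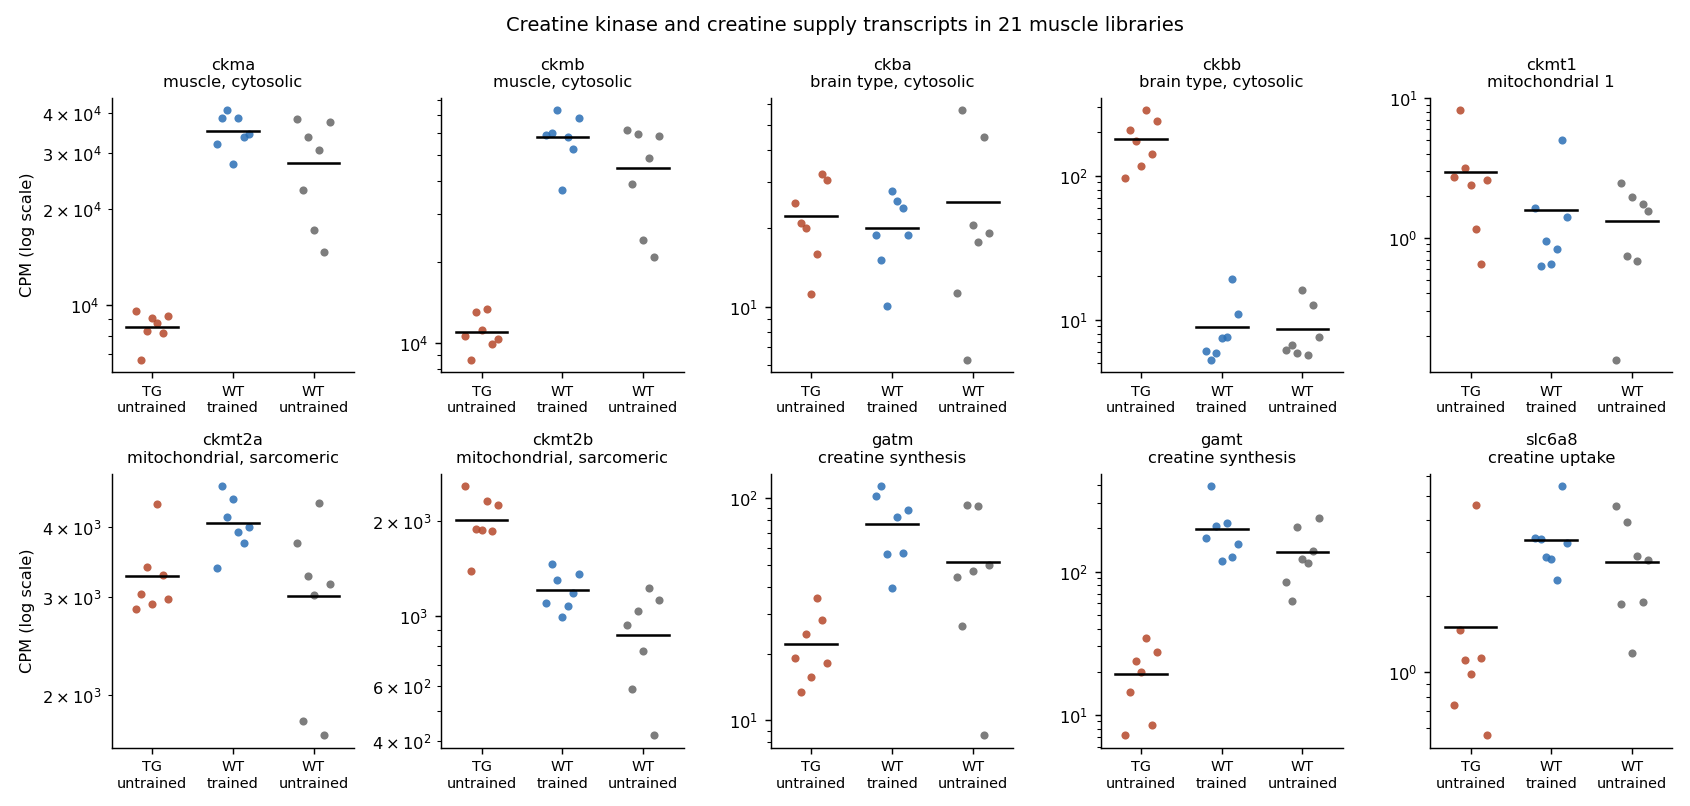
Level of each gene in every library (CPM on a log scale; each point is 1 library, the line is the group mean, 7 libraries per group). The untrained_TG points of ckma, ckmb and gamt lie below all wild-type points, and those of ckbb lie above them.

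The muscle cytosolic kinases ckma and ckmb are a pair of zebrafish paralogs, both orthologs of the mammalian muscle gene, whose product sits at the M band and beside calcium pumps. The level of ckma was lowest at 6738, median 8787 and highest at 9543 CPM in untrained_TG libraries, 27699, 34357 and 40704 in trained_WT, and 14672, 30601 and 38176 in untrained_WT. Every untrained_TG library was below every wild-type library, and both wild-type groups overlapped. In untrained_TG ckma averaged 8550.4 ± 947 CPM, against 27813 ± 9605 in untrained_WT (SD, n = 7 each), a log2 fold change of -1.70 ± 0.20 (SE, adjusted p = 6.15e-07). For ckmb the lowest, median and highest levels were 8662, 10563 and 13303 CPM in untrained_TG, 36841, 59266 and 73081 in trained_WT and 20848, 48535 and 61535 in untrained_WT. The pattern over groups was that of ckma, with untrained_TG below all wild-type libraries. The log2 fold change of untrained_TG against untrained_WT was -2.02 ± 0.24 (adjusted p = 5.75e-07). The highest ckma level was 1.42 times the lowest in untrained_TG, 1.47 times in trained_WT and 2.60 times in untrained_WT. Without untrained_WT replicate 7 the log2 fold changes were -1.80 for ckma and -2.13 for ckmb. The summed fast fibre markers given above were also lower in every untrained_TG library than in any wild-type library. Whether they follow these genes from library to library, and their part in the result, was not tested.

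The brain-type cytosolic kinases ckba and ckbb are paralogs, both orthologs of the mammalian gene CKB, which in mammals is the main cytosolic isoform of brain and smooth muscle. The lowest, median and highest levels of ckbb were 96.9, 173 and 284 CPM in untrained_TG, 5.27, 7.50 and 19.1 in trained_WT and 5.69, 6.70 and 15.9 in untrained_WT. Each untrained_TG library lay above every wild-type library, and the wild-type groups overlapped. The mean was 180.0 ± 67.9 CPM in untrained_TG and 8.65 ± 4.02 in untrained_WT, a 20.8-fold difference (log2 fold change 4.38 ± 0.36, adjusted p = 2.79e-09). In the authors' deposited table the log2 fold change of ckbb in the same comparison was 4.25 ± 0.30. The paralog ckba had 11.2, 21.04 and 32.2 CPM as its lowest, median and highest level in untrained_TG, 10.1, 18.9 and 27.9 in trained_WT and 6.29, 19.1 and 56.6 in untrained_WT. Its groups overlapped throughout, and its log2 fold change of -0.18 ± 0.36 did not pass the test (adjusted p = 0.72). The highest ckba levels, 56.6 and 44.8 CPM, were in untrained_WT replicates 3 and 7, the libraries with the highest germ-line marker sums. Without these 2 libraries the log2 fold change of ckba was 0.59 (adjusted p = 0.128), and the part of germ cells in its level was not tested. Nerve and glia markers, tissues rich in brain-type kinase in mammals, had 4 higher and 0 lower of 13 tested in untrained_TG (3 and 3 when scaled by library totals alone). Their sum was 271 to 397 CPM in untrained_TG, 206 to 427 in trained_WT and 211 to 298 in untrained_WT, and their part in the ckbb level was not tested. Of all genes tested 18.3% were called higher and 25.1% lower in untrained_TG.

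**Figure D2:**
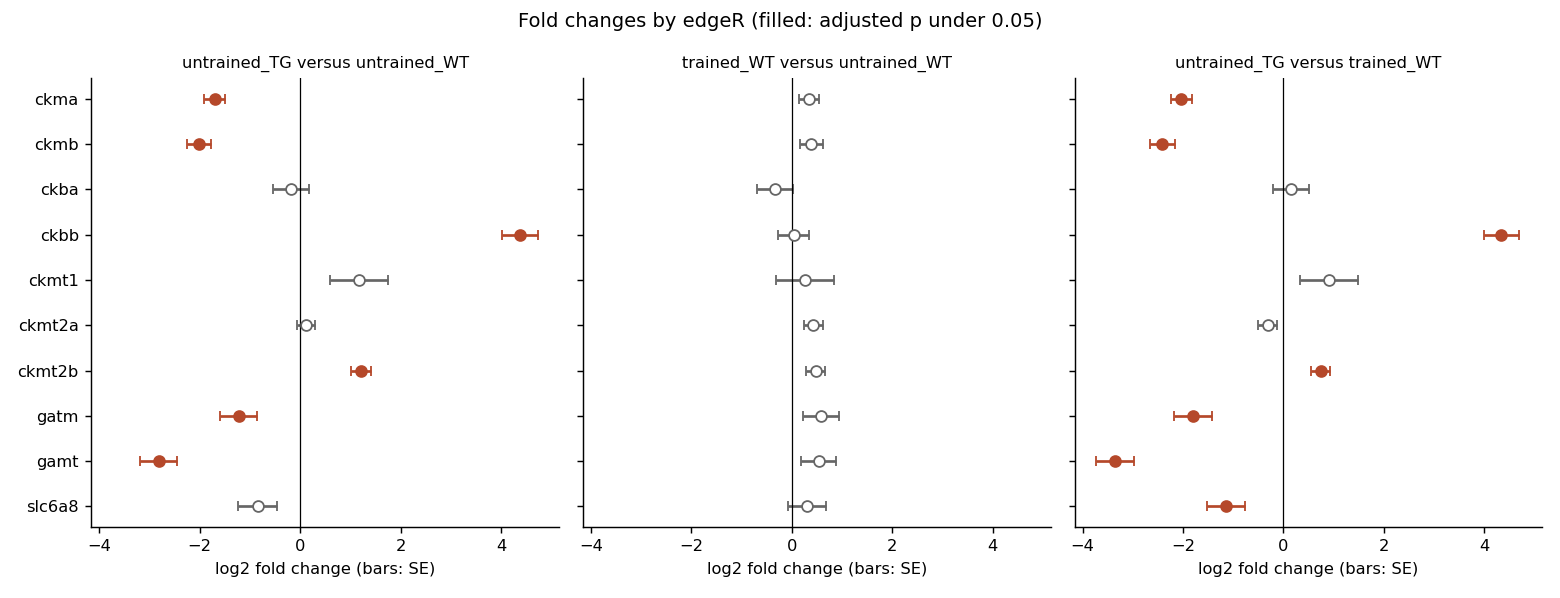
Log2 fold change of each gene in the 3 comparisons (points, with bars of 1 SE; filled points have an adjusted p under 0.05 by edgeR). The 6 filled points of untrained_TG versus untrained_WT run from -2.82 for gamt to 4.38 for ckbb, and no point of trained_WT versus untrained_WT is filled.

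The sarcomeric mitochondrial kinases ckmt2a and ckmt2b are paralogs, both orthologs of the gene that in mammals encodes the mitochondrial isoform of heart and skeletal muscle. They did not move alike in untrained_TG. The lowest, median and highest levels of ckmt2b were 1382, 1887 and 2576 CPM in untrained_TG, 993, 1181 and 1463 in trained_WT and 418, 935 and 1223 in untrained_WT. All untrained_TG libraries were above all untrained_WT ones, and 6 of 7 were above every trained_WT library. The mean was 2018 ± 391 CPM in untrained_TG and 872 ± 293 in untrained_WT (log2 fold change 1.21 ± 0.20, adjusted p = 3.96e-05). For ckmt2a the levels were 2856, 3030.3 and 4405 CPM in untrained_TG, 3373, 3994 and 4734 in trained_WT and 1697, 3158 and 4415 in untrained_WT, and all groups overlapped. Its log2 fold change of 0.11 ± 0.18 did not pass the test (adjusted p = 0.644), and its sign was negative by library totals alone (-0.30), with limma (-0.030) and without untrained_WT replicates 3 and 7 (-0.095). The library-totals value lay 0.34 above the median of all genes by that scaling, and the TMM value 0.25 above its own. The remaining mitochondrial gene, ckmt1, is the ortholog of the isoform found in many mammalian tissues. Its level was 0.652, 2.59 and 8.19 CPM in untrained_TG, 0.635, 0.957 and 5.04 in trained_WT and 0.134, 1.55 and 2.46 in untrained_WT, from 11 to 543 counts per library. The difference between untrained_TG and untrained_WT was 1.17 ± 0.58 log2 units (adjusted p = 0.108), within the overlap of the groups.

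Creatine synthesis genes were both lower in untrained_TG. The level of gamt was 7.21, 20.0 and 34.6 CPM (lowest, median and highest) in untrained_TG, 118, 170.2 and 395 in trained_WT and 62.7, 122 and 235 in untrained_WT. No untrained_TG library reached the level of any wild-type library. The mean was 19.4 ± 10.05 CPM in untrained_TG and 137 ± 62.0 in untrained_WT, 7.06-fold lower (log2 fold change -2.82 ± 0.37, adjusted p = 2.35e-06). The level of gatm was 13.4, 19.2 and 35.5 CPM in untrained_TG, 39.3, 82.5 and 113 in trained_WT and 8.57, 46.8 and 92.9 in untrained_WT. Its untrained_TG libraries lay below all trained_WT ones and overlapped with untrained_WT, where replicate 7 held the lowest value, 8.57 CPM. The log2 fold change was -1.22 ± 0.37 (adjusted p = 0.0103), or -1.39 without untrained_WT replicate 7. With the replicate number as a block it was -1.02 (adjusted p = 0.0635), which ended the call. The transporter gene slc6a8 had 0.562, 1.12 and 4.59 CPM in untrained_TG, 2.31, 3.25 and 5.47 in trained_WT and 1.19, 2.79 and 4.55 in untrained_WT, from 23 to 427 counts per library. Of the untrained_TG libraries 5 of 7 were below every untrained_WT library, and replicate 5, at 4.59 CPM, was above all of them. The log2 fold change of slc6a8 was -0.85 ± 0.38 (adjusted p = 0.0785). It was -1.42 (adjusted p = 0.000617) without untrained_TG replicate 5, and a call also resulted without untrained_WT replicate 5 (-1.002, adjusted p = 0.0367), by library totals alone (-1.34, adjusted p = 0.00337) and with limma (-1.18, adjusted p = 0.0116). Liver markers, from an organ that makes creatine in mammals, summed to 2.20 to 57.5 CPM in untrained_TG, 2.86 to 68.2 in trained_WT and 0.882 to 81.8 in untrained_WT, with 0 of 10 tested called by edgeR, DESeq2 or limma and 0 at an unadjusted p under 0.05. Kidney markers summed to 146 to 323 CPM, 30.9 to 178 and 37.3 to 336. Of them cdh17 averaged 147, 25.0 and 46.7 CPM and slc20a1a 27.2, 45.6 and 35.5 in the same groups. In untrained_TG against untrained_WT 1 was higher and 1 lower of 9 tested (0 and 3 by library totals, 1 call by limma). The median log2 fold change of the kidney list was -0.78, and the part of these markers in the gatm level was not tested. By edgeR 43.4% of all genes tested were called in untrained_TG against untrained_WT.

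**Figure D3:**
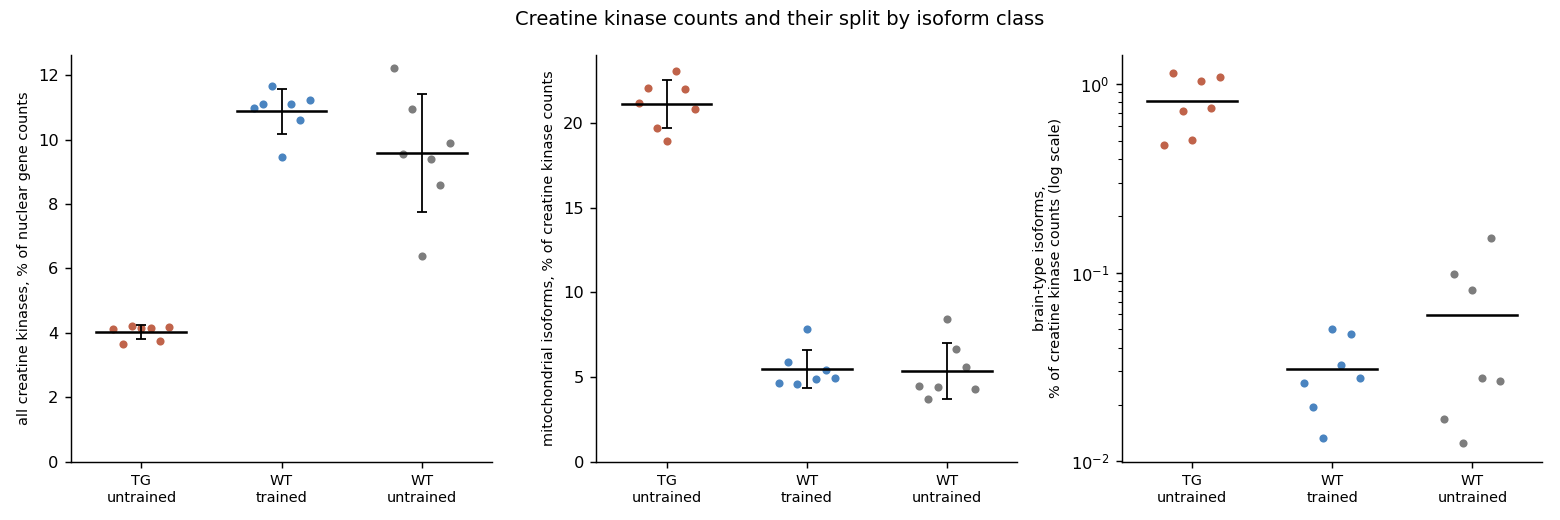
Left, all creatine kinase counts as a percent of nuclear gene counts; middle, mitochondrial isoforms as a percent of creatine kinase counts; right, brain-type isoforms as a percent of creatine kinase counts on a log scale (points are libraries, the line and bar are mean and SD, no SD drawn on the log panel). In untrained_TG the first share averages 4.03%, the second 21.1% and the third 0.814%, apart from both wild-type groups in each panel.

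The 7 kinase genes together took 4.03% ± 0.228 of nuclear gene counts in untrained_TG, 10.9% ± 0.703 in trained_WT and 9.57% ± 1.83 in untrained_WT (SD, n = 7 each). The untrained_TG libraries lay between 3.66% and 4.22%, below the lowest wild-type value of 6.39%. Of the creatine kinase counts, mitochondrial isoforms made up 21.1% ± 1.43 in untrained_TG, 5.46% ± 1.13 in trained_WT and 5.36% ± 1.66 in untrained_WT. Their lowest share in untrained_TG, 19.0%, was above the highest wild-type share, 8.41%. Brain-type isoforms made up 0.814% ± 0.273 of creatine kinase counts in untrained_TG, 0.0310% ± 0.0137 in trained_WT and 0.0594% ± 0.0528 in untrained_WT. Within the brain type, ckbb held 88.0% ± 5.47 of counts in untrained_TG, 30.2% ± 8.91 in trained_WT and 30.3% ± 13.03 in untrained_WT. Counts are not adjusted for transcript length, so these shares compare groups and not the abundance of one isoform against another.

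A ratio of 2 genes within a library does not depend on how libraries are scaled, so it compares isoforms despite the large mitochondrial share in untrained_TG. Exact two-sided permutation tests over the 3432 ways to divide 14 libraries were adjusted over 9 tests, and the smallest p they can give is 0.000583. The log2 ratio of ckmt2b to ckmt2a counts averaged -0.70 ± 0.33 in untrained_TG and -1.80 ± 0.21 in untrained_WT, without overlap. The difference was 1.096 ± 0.15 (SE), a 2.14-fold change of the ratio (exact permutation p = 0.000583, adjusted p = 0.00131). The share of ckmt2b among sarcomeric mitochondrial kinase counts was 38.2% ± 5.48 in untrained_TG, 23.0% ± 2.44 in trained_WT and 22.4% ± 2.59 in untrained_WT. The log2 ratio of ckmt2a to ckma averaged -1.40 ± 0.28 in untrained_TG and -3.20 ± 0.42 in untrained_WT, also without overlap. It was higher in untrained_TG by 1.80 ± 0.19 (adjusted p = 0.00131 by the same exact test). The log2 ratio of ckmb to ckma was 0.36 ± 0.20 in untrained_TG and 0.66 ± 0.12 in untrained_WT, and the groups overlapped. It was lower in untrained_TG by a difference of -0.30 ± 0.09 (exact permutation p = 0.00816, adjusted p = 0.0122). Among marker lists in untrained_TG against untrained_WT, 1 was higher and 16 lower of 21 fast fibre genes, 5 higher and 0 lower of 9 slow fibre genes, 1 higher and 7 lower of 10 skeletal muscle genes, and 0 higher and 7 lower of 7 germ-line genes. Of all genes tested 18.3% were called higher and 25.1% lower. Limma called 2 of the 7 germ-line genes, and without untrained_WT replicates 3 and 7 edgeR called 1. Heart had 1 higher of 3 and white blood cells 3 higher and 2 lower of 9. Without untrained_WT replicate 3 these were 0 for heart and 1 higher and 2 lower for white blood cells, and without replicate 7 they were 0 for heart and 4 higher and 0 lower. Scaled by library totals, slow fibre genes had 5 higher and 2 lower, heart 0 higher and 1 lower, and white blood cells 0 higher and 2 lower. EdgeR called 0 of 8 red blood cell genes, where DESeq2 and limma each called 1; before adjustment 2 passed 0.05. EdgeR, DESeq2 and limma called 0 of 4 skin genes, of which 1 passed 0.05 before adjustment. Their part in the isoform makeup was not tested. Reads that align equally well to both genes of a paralog pair may not have been counted, so levels within a pair are uncertain by an amount that was not computed. Reads not aligned uniquely came to a mean of 6.65% of the table in untrained_TG, 9.06% in trained_WT and 9.07% in untrained_WT. How many of them came from these pairs is not known, and their part in the ratios was not tested.

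**Figure D4:**
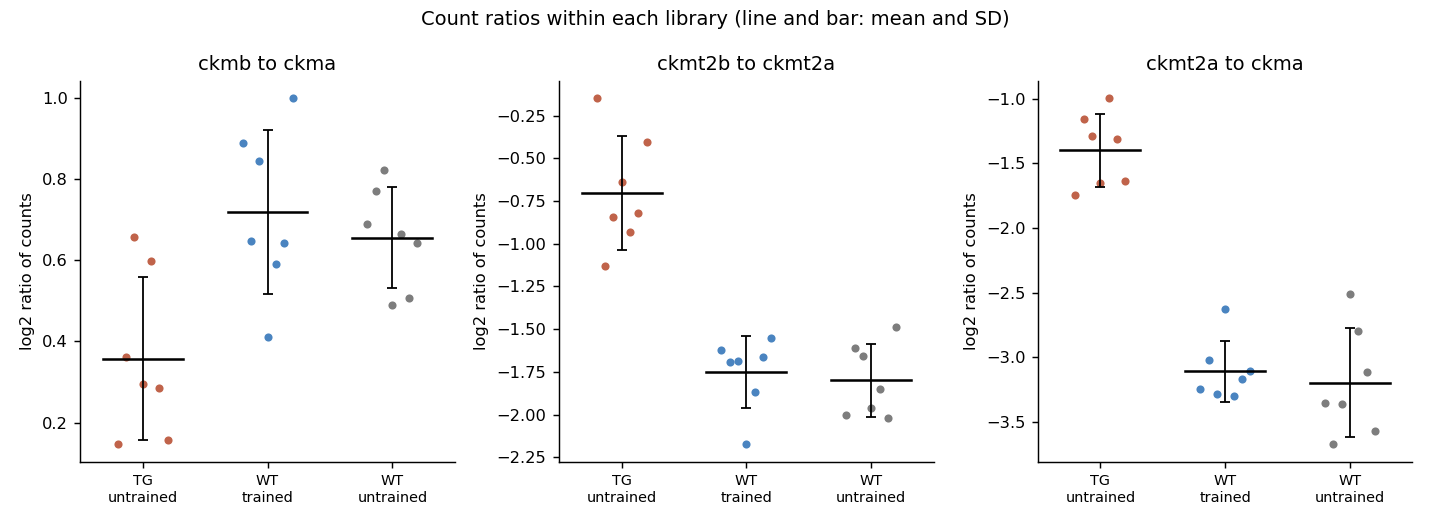
Log2 ratio of counts within each library for ckmb to ckma, ckmt2b to ckmt2a and ckmt2a to ckma (points are libraries, the line and bar are mean and SD, 7 libraries per group). The untrained_TG mean of ckmt2b to ckmt2a is -0.70 and that of ckmt2a to ckma is -1.40, both above every wild-type library.

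Trained_WT was set against untrained_WT to see what differs in wild-type muscle after chronic exercise. None of the creatine kinase or creatine supply genes was called. By edgeR 0 of 10 had an adjusted p under 0.05, where 2.95% of all genes tested were called, 2.25% higher and 0.702% lower. All 10 had overlapping groups, and 1.34% of all genes tested had groups that did not overlap (0.992% higher and 0.348% lower). At an unadjusted p under 0.05 there were 2, ckmt2a and ckmt2b. DESeq2 and limma also called 0 of the 10, against 6.88% and 5.16% of all genes tested. The sarcomeric mitochondrial kinases had the smallest p-values. The mean of ckmt2b was 1209 ± 170.3 CPM in trained_WT and 872 ± 293 in untrained_WT, a log2 fold change of 0.47 ± 0.20 (adjusted p = 0.188). For ckmt2a it was 4060.4 ± 455 CPM in trained_WT and 3015 ± 984 in untrained_WT (0.43 ± 0.18, adjusted p = 0.197). The log2 fold changes of ckma and ckmb were 0.33 ± 0.20 (adjusted p = 0.367) and 0.39 ± 0.23 (adjusted p = 0.369). For gatm and gamt they were 0.58 ± 0.36 (adjusted p = 0.4) and 0.53 ± 0.35 (adjusted p = 0.418). Those of ckba, ckbb, ckmt1 and slc6a8 lay between -0.33 and 0.30, with an adjusted p of at least 0.665. The median of the 10 was 0.36, beside -0.07 over all genes. No ratio passed the test. The differences were, for ckmb to ckma, 0.06 ± 0.09 (exact permutation p = 0.5), for ckmt2b to ckmt2a 0.05 ± 0.11 (exact permutation p = 0.674) and for ckmt2a to ckma 0.09 ± 0.18 (exact permutation p = 0.635). A p that misses the threshold does not show that levels were equal.

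Untrained_TG was also set against trained_WT, a comparison that shares its untrained_TG libraries with the first one. By edgeR 7 of the 10 genes were called, 2 higher and 5 lower, where 41.6% of all genes tested were called, 19.2% higher and 22.5% lower. Groups did not overlap for 5 of them (1 higher and 4 lower), against 19.7% of all genes tested (8.22% higher and 11.5% lower). The genes called higher were ckbb (4.34 ± 0.36, adjusted p = 3.37e-09) and ckmt2b (0.74 ± 0.20, adjusted p = 0.00448). Those called lower were ckma (-2.04 ± 0.21, adjusted p = 6.75e-08), ckmb (-2.41 ± 0.24, adjusted p = 6.81e-08), gamt (-3.35 ± 0.38, adjusted p = 3.43e-07), gatm (-1.80 ± 0.37, adjusted p = 0.000493) and slc6a8. For slc6a8 the mean was 1.51 ± 1.39 CPM in untrained_TG and 3.35 ± 1.01 in trained_WT (-1.14 ± 0.38, adjusted p = 0.02), and without trained_WT replicate 6 it was -0.99 (adjusted p = 0.0514), which ended the call. Without that same library ckmt1 was called higher (1.55, adjusted p = 0.0281). For ckmt2a the log2 fold change was -0.32 ± 0.18 (adjusted p = 0.181), or -0.53 by library totals alone (adjusted p = 0.00184). The ratio of ckmt2b to ckmt2a was higher by 1.05 ± 0.15 log2 units and that of ckmt2a to ckma by 1.71 ± 0.14, both with an adjusted p of 0.00131 by the exact test. The ratio of ckmb to ckma differed by -0.36 ± 0.11 (adjusted p = 0.0122), a call that medians in place of means ended (adjusted p = 0.0525).

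Across the groups, the order of mean levels was therefore the same for ckma, ckmb, gatm and gamt, with untrained_TG lowest and the wild-type groups above it without a called difference between them. For ckbb and ckmt2b untrained_TG was highest, and the wild-type groups again did not differ by the test. For ckba, ckmt1 and ckmt2a edgeR called no neighbours in the order with all libraries in, with the exceptions for ckmt1 and ckmt2a given above. The level of slc6a8 was lowest in untrained_TG and highest in trained_WT, and only those ends of its order differed by the test. Scaled by library totals alone, the median over all genes moved to -0.64 log2 units for untrained_TG against untrained_WT, and 15.9% of the calls were higher instead of 42.1%. The log2 fold change by library totals was 0.82 for ckmt2b, 3.78 for ckbb, -2.09 for ckma and -3.29 for gamt. Relative to the median of -0.64 these came to 1.47, 4.42, -1.45 and -2.65.

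Correlations of paralog levels, and of gatm with gamt, were computed within each group, and only untrained_WT held any with an adjusted p under 0.05. Over the 7 untrained_WT libraries, with 9 relations tested, ckma and ckmb had a Pearson r of 0.99 (exact permutation p = 0.000595, adjusted p = 0.00536). Their Spearman rho was 0.964 (exact permutation p = 0.00278, adjusted p = 0.025). Without the 2 libraries farthest from the median level of ckma, r was 0.969. In trained_WT r was 0.807 (exact permutation p = 0.028, adjusted p = 0.084) and in untrained_TG 0.492 (exact permutation p = 0.27). Without the 2 libraries of each group farthest from its median ckma level, r was 0.0484 and -0.10. For ckmt2a and ckmt2b r was 0.925 in untrained_WT (exact permutation p = 0.00377, adjusted p = 0.017), with a rho of 0.857 (adjusted p = 0.107). Without the 2 libraries farthest from the median ckmt2a level, r was 0.598. For the same pair r was 0.358 in trained_WT (exact permutation p = 0.428) and 0.169 in untrained_TG (exact permutation p = 0.666). Leaving out the farthest libraries narrows the range of levels, which can by itself lower r. Whether a relation rests on those libraries therefore cannot be told from these values. The levels share their library scaling, which can add to such correlations. For gatm and gamt r was 0.206 in untrained_TG, 0.681 in trained_WT and 0.243 in untrained_WT, none with an adjusted p under 0.05.

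Genes with the most similar pattern were sought among the 14359 genes that averaged 50 counts or more, by the Pearson correlation of log2 CPM after subtracting each group mean, over 21 libraries. These are descriptions without a test, and the values share library scaling. For ckma the closest was akt2 (r = 0.931), an insulin signalling kinase gene, with ckmb (0.917) next after zgc:101569 (0.930). For ckmb they were zgc:101569 (0.941), slain2 and wdr45b. For ckmt2a the closest were respiratory chain genes: atp5a1 (0.940), which encodes the alpha subunit of ATP synthase, and ndufa8 and ndufa9a, both complex I genes (0.937 each). While ckmt2a did not change in untrained_TG by the test, atp5a1 rose by 1.53 ± 0.19 log2 units. For ckmt2b they were fam73a (0.953), hmgb3b (0.945) and gbe1b (0.919), a glycogen branching enzyme gene, and ckmt2a was less close to it (0.750). For gatm the closest included the glycolytic genes pgam2 (0.923) and aldoaa (0.918). For ckmt1 they included slc12a1 (0.897) and slc12a3 (0.881), salt transporter genes of the kidney marker list, so these markers move with ckmt1 from library to library, and their part in its level was not tested. For ckba they included zswim5 (0.904) and hmgb1b (0.883). For ckbb, gamt and slc6a8 the closest were scpep1 (0.793), btf3l4 (0.826) and arv1 (0.755).

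Genes around the creatine kinase system were followed in 4 lists. Beside them, 43.4% of all genes tested were called in untrained_TG against untrained_WT, 18.3% higher and 25.1% lower. The median log2 fold change over all genes was -0.13 there. In trained_WT against untrained_WT 2.95% of all genes tested were called. The list of mitochondrial ATP and phosphate exchange, the step that feeds mitochondrial creatine kinase, had 5 higher and 1 lower of 7 tested in untrained_TG, and its median was 0.78 on the log2 scale. The ADP/ATP carriers moved in opposite directions. The carrier gene slc25a5 averaged 30696 ± 6916 CPM in untrained_TG and 4984 ± 1281 in untrained_WT (2.62 ± 0.19, adjusted p = 3.98e-10). The carrier gene slc25a4 averaged 264 ± 138 CPM in untrained_TG and 3224 ± 844 in untrained_WT (-3.61 ± 0.31, adjusted p = 6.99e-09), and neither gene had overlapping groups. The phosphate carrier gene slc25a3b rose by 1.17 ± 0.17 log2 units, and the outer membrane channel genes vdac1, vdac2 and vdac3 by 1.06, 0.78 and 0.70, where vdac3 was not called by library totals alone (0.27). In trained_WT edgeR called 0 of these 7, with 3 at an unadjusted p under 0.05. The closest were slc25a5 (0.62 ± 0.18, adjusted p = 0.0578) and vdac3 (0.66 ± 0.19, adjusted p = 0.0612), which DESeq2 called with an adjusted p of 0.00602 and 0.0179, and limma with 0.044 and 0.0422.

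Among adenylate kinases, AMP deaminases and partners of the purine nucleotide cycle, which also buffer ATP, 2 were higher and 7 lower of 16 in untrained_TG (median -0.44), or 1 and 10 by library totals. The adenylate kinase genes ak7a, ak7b and ak8 were among the 7, and in untrained_WT each was highest in replicates 3 and 7, the libraries with the highest germ-line marker sums. Without these 2 libraries none of those 3 was called, and 2 were higher and 5 lower. The AMP deaminase gene ampd1 averaged 172 ± 33.1 CPM in untrained_TG and 778 ± 126 in untrained_WT (-2.17 ± 0.16, adjusted p = 5.58e-10). The cytosolic adenylate kinase gene ak1 averaged 1042 ± 154 CPM in untrained_TG and 3515 ± 1166 in untrained_WT (-1.75 ± 0.21). The genes adssl and adss, for the synthesis of adenylosuccinate, moved apart, by 2.00 ± 0.19 and -1.60 log2 units. The mitochondrial adenylate kinase gene ak3 rose by 0.87, a call lost by library totals alone (0.30). In trained_WT 1 of 16 was called, the AMP deaminase gene ampd3a at 14.8 ± 3.61 CPM, against 30.0 ± 7.79 in untrained_WT (-1.02 ± 0.21, adjusted p = 0.00882).

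Over all genes the share called in untrained_TG was 43.4% (25.1% lower), with a median log2 fold change of -0.13. Genes for the methyl donor and arginine that creatine synthesis uses had 0 higher and 8 lower of 17 in untrained_TG (median -0.62). They included bhmt (-2.37 ± 0.23) and mtr (-3.29 ± 0.35), which encode enzymes that regenerate methionine, and the ornithine aminotransferase gene oat (-1.86 ± 0.27). The level of bhmt was 21.4 ± 4.99 CPM in untrained_TG and 110.5 ± 36.9 in untrained_WT. The gene with the highest mean level of this list, arg2, was not called. It averaged 454 ± 157 CPM in untrained_TG and 292 ± 184 in untrained_WT (0.64 ± 0.34, adjusted p = 0.134 by edgeR). In trained_WT 1 of 17 rose, the ornithine transcarbamylase gene otc, at 1.195 ± 0.391 CPM against 0.302 ± 0.175 in untrained_WT (1.97 ± 0.44, adjusted p = 0.0159), which library totals alone did not call (adjusted p = 0.0674). M band proteins and calcium pumps, sites that muscle creatine kinase serves, had 5 higher and 6 lower of 12 in untrained_TG (median -0.40). The calcium pump gene atp2a1l fell by 5.57 ± 0.43 log2 units, to 494 ± 338 CPM in untrained_TG, against 23503 ± 5814 in untrained_WT, while atp2a2a and atp2a1 rose by 2.31 and 1.19. Of the myomesin genes, which cross-link the M band, myom2b fell by 4.96 ± 0.40 log2 units, myom2a fell by 3.34 and myom3 rose by 2.26. The obscurin gene obscnb fell by 1.89 ± 0.18 log2 units. In trained_WT 0 of the 12 were called by edgeR, DESeq2 or limma, and 1 had an unadjusted p under 0.05. The nearest were myom3 (0.60, adjusted p = 0.23) and atp2a2a (0.43, adjusted p = 0.27). The genes adss, ak3, ak7a, ak7b, ak8, arg2, vdac1, vdac2 and vdac3 were named for untrained_TG after their values were seen. So were atp2a1, atp2a2a, myom1a, myom1b, myom2a and myom3.

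**Figure D5:**
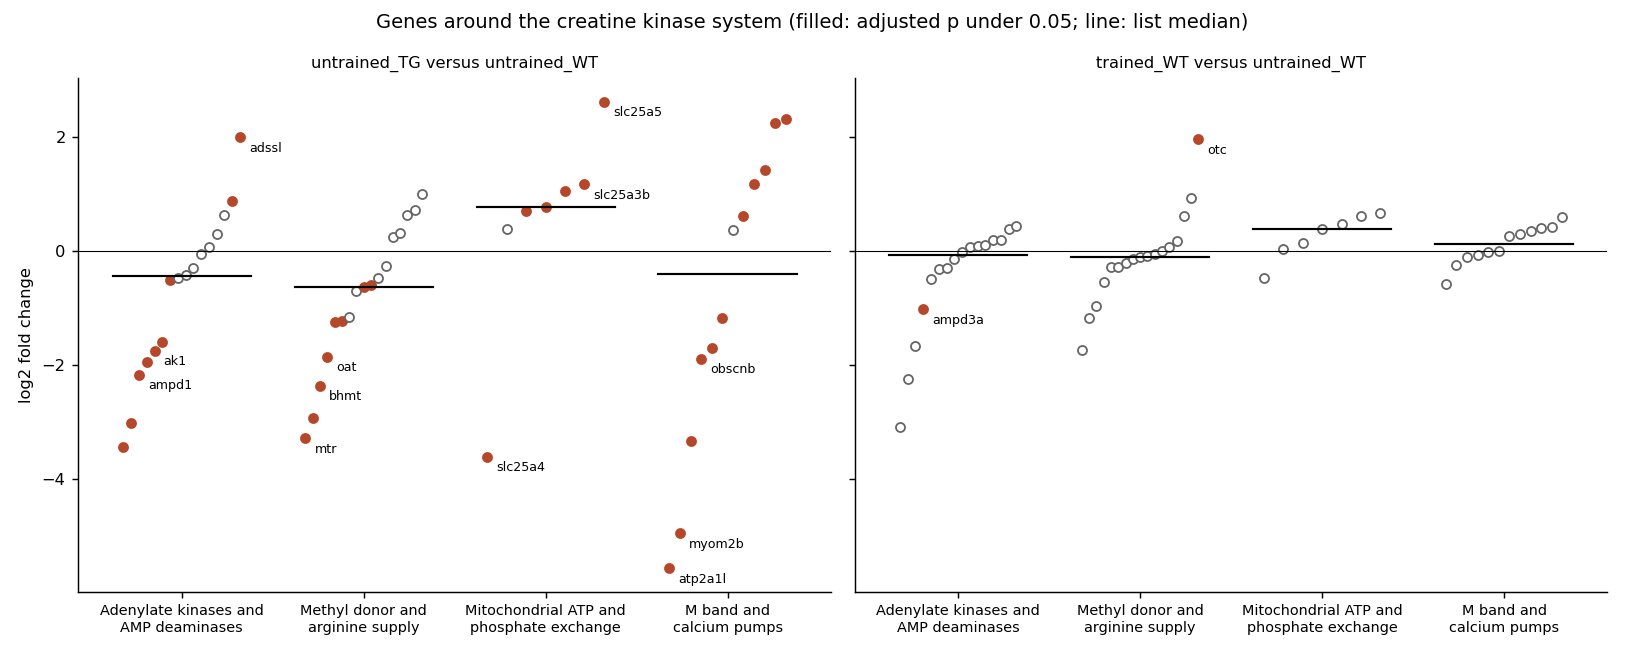
Log2 fold change of each tested gene of 4 lists in untrained_TG versus untrained_WT (left) and trained_WT versus untrained_WT (right); filled points have an adjusted p under 0.05 by edgeR and the short line is the list median. On the left the medians are -0.44, -0.62, 0.78 and -0.40 from left to right, and on the right only ampd3a and otc are filled.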

How the data were processed

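The authors deposited raw read counts per gene. Per the submitters' processing notes the tools included HTSeq 0.9.1, STAR 2.4.0i and DESeq2, with the build GRCz10. How strand was used in counting, and with which annotation, is not given in the sources used here. Reads of overlapping or antisense genes may thus not be separable. The authors' deposited tables give log2 fold changes with standard errors and an adjusted p-value for untrained_TG and trained_WT against untrained_WT. Their other 42 columns per sample were not used here. Rows that name no gene were left out. Reads without a feature came to a mean of 9.18%, 5.79% and 6.19% of the table in untrained_TG, trained_WT and untrained_WT.

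Counts were tested with edgeR 4.0.16 in R 4.3.3 (quasi-likelihood F test, TMM, filterByExpr by group, 1 fit of 21 libraries with a term for group), with Benjamini-Hochberg adjustment over 18947 genes. The filter used all groups. Tests planned on 8 libraries per group ran on 7. Alternatives were DESeq2 1.42.0, limma 3.58.1, other scalings and filters, the replicate block and libraries left out. Leaving out each other library, medians of the kinase shares, list counts without untrained_WT replicates 3 or 7, and values relative to the median gene were added after seeing the data. No pair of libraries agreed within sampling noise. The code was tested on simulated data.

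The genes and the 15 lists (4 of pathways, the others of cell type markers) were chosen with earlier results of these data known. The rule for named genes took all creatine kinase and supply genes, the 3 and 2 genes of each pathway list with the smallest p in the comparisons of untrained_TG and trained_WT with untrained_WT, and the 3 genes most correlated with each member. No coordinates or sequences are printed, since no genome of this build was used here.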

Additional observations from a re-analysis of the deposited data

Results flagged for a closer look

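In 63 sets of 7 libraries, 11 had a highest or lowest library farther from the others than Dixon's 95% critical value allows. Its rate of about 1 in 20 holds for normally distributed values. Levels entered as CPM without logs, and the shares and ratios reuse the same genes, so 11 cannot be read against that rate. In untrained_TG the flagged libraries were replicate 5 for ckmt2a (4405 CPM, others at most 3392) and slc6a8 (4.59 CPM, others at most 1.46), and replicate 2 for ckmt1 (8.19 CPM, others at most 3.14). Untrained_TG replicate 5 had the lowest TMM factor of the 21 libraries (0.722), which raises its CPM. Whether its flags hold by library totals was not tested. In trained_WT replicate 6 was highest for ckbb (19.1 CPM, others at most 10.9), ckmt1 (5.04 CPM, others at most 1.63) and slc6a8 (5.47 CPM, others at most 3.41). Replicate 2 of trained_WT was highest for gamt (394.7 CPM, others at most 217).

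In 4 measures that share creatine kinase counts, and so are not separate deviations, trained_WT replicate 4 stood apart. Its log2 ratio of ckmt2a to ckma was -2.63 (others at most -3.02), and mitochondrial isoforms made up 7.82% of its creatine kinase counts (others at most 5.90%). Muscle cytosolic isoforms made up 92.1% of them (others at least 94.1%), and all creatine kinases took 8.27% of all its gene counts, mitochondrially encoded ones included (others at least 9.47%), and 9.46% of its nuclear ones. This library also had the highest slow fibre marker sum of trained_WT (4118 CPM) and the lowest fast fibre marker sum (110961 CPM), whose part in these values was not tested.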

How the results depend on the processing

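Across the alternatives the number of members called was 5 to 8 for untrained_TG against untrained_WT, 0 throughout for trained_WT against untrained_WT and 7 or 8 for untrained_TG against trained_WT. For ckma, ckmb, ckbb, ckmt2b and gamt all alternatives run kept direction and call in both comparisons of untrained_TG. Values below are log2 fold changes unless stated, and the cause of each change was not tested. In untrained_TG against untrained_WT, ckmt1 was called by limma (1.61, adjusted p = 0.049). There ckmt2a changed sign with library totals only (-0.30), limma (-0.030) and without untrained_WT replicates 3 and 7 (-0.095), and leaving out 1 library moved it between -0.0030 (without untrained_WT replicate 3) and 0.21. The sign of ckba changed with limma (0.41), without untrained_WT replicate 3 (0.11), 7 (0.036) or both (0.59). In trained_WT against untrained_WT it changed with limma (0.33), the block (0.047) and without replicates 3 and 7 (0.42), and in untrained_TG against trained_WT with library totals (-0.075) and the block (-0.096). In trained_WT against untrained_WT ckmt1 and ckbb changed sign with library totals only (-0.12 and -0.33), and leaving out 1 library moved them between -0.38 and 0.49 and between -0.27 and 0.25. Of all genes, 559 were called for training by edgeR, 1303 by DESeq2, 978 by limma, 1128 with library totals only (17.8% of them higher instead of 76.2%), 369 with the block, 335 without untrained_WT replicate 3, 262 without replicates 3 and 7 and 287 without trained_WT replicate 5. In untrained_TG against trained_WT 30.6% of calls were higher with library totals, instead of 46.1%.

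With medians in place of means the ckmb to ckma ratio of trained_WT against untrained_WT was -0.017 and that of untrained_TG against trained_WT -0.35 (adjusted p = 0.0525). The labels do not state that replicate numbers pair the libraries. Same-numbered libraries correlated between -0.36 and 0.40, with r above 0.1 in 0, 2 and 2 of 6 pairs. Differently numbered libraries were not correlated as a baseline, so pairing was not tested. With the replicate block, by an exact sign-flip test over same-numbered libraries whose smallest p is 0.0312, the ckmb to ckma differences were -0.26 against untrained_WT and -0.28 against trained_WT (adjusted p = 0.0938 each). Those of ckmt2b to ckmt2a were 1.06 and 1.03 and those of ckmt2a to ckma 1.79 and 1.75 (adjusted p = 0.0702 each), and ckmt2b to ckmt2a in trained_WT against untrained_WT was -0.011. In both ratios every untrained_TG library lay above every wild-type library, so the untrained_TG tests gave the smallest p possible. The adjusted p of 0.0702 follows from that limit and the adjustment, and does not show a weaker difference. In the fit across genes the block moved the called members to 5 in the first comparison, through gatm, and left 0 and 7 in the others. At 11 to 543 counts per library, ckmt1 and slc6a8 are the least precise members.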

Other observations

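Within untrained_TG the members did not rank the libraries alike. Replicate 5 had the highest level of ckbb (284 CPM), ckmb (13303), ckmt2a (4405), gamt (34.6), gatm (35.5) and slc6a8 (4.59). It also had the lowest TMM factor of the 21 libraries (0.722), which raises every CPM in it, so ranks by library totals can differ from these. By counts over library totals replicate 5 stayed highest for ckmt2a, gatm and slc6a8, but not for ckmb, ckbb and gamt. Replicate 1 had the highest ckma (9543 CPM) and ckmt2b (2576) and the lowest ckmt2a (2856), ckbb (96.9) and gamt (7.21). Replicate 1 also had the highest summed slow fibre markers (23847 CPM) and the lowest fast fibre markers (2871), and replicate 2, with the lowest slow fibre markers (11951), had the lowest ckma, ckmb, ckmt2b and gatm.

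Mitochondrial creatine kinases and the ADP/ATP carrier genes whose product supplies them with ATP were at different log2 fold changes. In untrained_TG against untrained_WT, slc25a5 rose by 2.62 and ckmt2b by 1.21, slc25a4 fell by 3.61 and ckmt2a was at 0.11, which did not pass the test. In trained_WT against untrained_WT, slc25a5, ckmt2b and ckmt2a were at 0.62, 0.47 and 0.43, none of them called by edgeR. Whether these changes differ between the genes was tested only for ckmt2b against ckmt2a.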
